A study of Mus musculus with 4 samples.

Results

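The genes described are 10 building blocks of the basement membrane, chosen by symbol from the 27999 gene rows shared by 4 single-cell RNA libraries of mouse hair follicle mesenchyme. They are the laminin alpha chains Lama2, Lama4 and Lama5, the beta chains Lamb1 and Lamb2, the gamma chain Lamc1, the nidogens Nid1 and Nid2, and the heparan sulfate proteoglycans Hspg2 (perlecan) and Agrn (agrin). The study addressed how the mesenchymal progenitors of the hair follicle change with age, and it compared back skin from 2-month-old mice with skin from 12-month-old and 18-month-old mice. All mice were C57BL/6J and carried α-SMACreERT2, a tamoxifen-inducible Cre under the smooth muscle actin promoter, and all received 4-hydroxy-tamoxifen on postnatal days 3 and 4, so that dermal sheath cells and their progeny were labelled. The first pair of libraries, 1 at 2 months and 1 at 18 months, came from RosaYFP reporter mice and was made with version 2 of the 10x Genomics 3′ chemistry. The second pair, 1 at 2 months and 1 at 12 months, came from RosaTDTomato reporter mice and was made with version 3. Each library pooled 2 mice and 10000 sorted cells that were positive for the reporter or Cd26 and also positive for Itga9 or Cd200. Epidermis was removed before sorting. The design text counts the 12-month mice as young, and here they are the older member of their pair. Sets of 4 values below follow the order 2 and 18 months (version 2), then 2 and 12 months (version 3).

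Basement membranes are thin sheets of matrix on which epithelia, muscle fibres, nerves and vessels rest. Laminins are heterotrimers of 1 alpha, 1 beta and 1 gamma chain that polymerise on cell surfaces, nidogens tie that polymer to the collagen IV network, and perlecan and agrin bind both and hold growth factors through their heparan sulfate chains. In the hair follicle, a basement membrane separates the epithelium from the dermal papilla, the signalling cluster at the follicle base, and from the dermal sheath, the contractile mesenchymal cup around the follicle.

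The kept cells numbered 1677, 2431, 5388 and 3964, with a median of 6260, 6588, 11934 and 11787 unique molecular identifiers (UMIs, the counted transcript molecules) per cell. The deposited matrices hold 1906, 2727, 7023 and 5474 barcodes, where the labels state that 2604, 3776, 6998 and 5415 cells were recovered. The design text numbers its samples without ages, and its figure for the second sample, 1906 cells, equals the barcodes of the version 2 library titled 2 months. Which version 2 library is which age therefore rests on the titles alone, and every 18-month ratio below would invert if those libraries were exchanged. Xist was at 0 and 0.104 CPM (UMIs of a gene per 1000000 UMIs of the cells summed) in the version 2 pair and at 831 and 849 CPM in the version 3 pair. The matrix entry named eYFP held 1165 and 2934 CPM in the version 2 pair, and also 1626 and 1631 CPM in the version 3 pair, whose labels name TDTomato. Chemistry, reporter line and Xist level therefore went together between the pairs and cannot be told apart, so ages are compared within a pair. The version 3 libraries shared 84 barcodes and the version 2 libraries 7, and 36 kept cells carried such a barcode. Clusters were named from marker genes with the members left out of the clustering. Dermal papilla-like cells numbered 537, 445, 1065 and 357, dermal sheath-like cells 197, 456, 2293 and 1816, and dermal fibroblast-like cells 244, 691, 425 and 720. Keratinocyte-like cells (243, 111, 240 and 166) and macrophage and dendritic-like cells (106, 367, 675 and 752) also reached 50 cells in every library. Pericyte-like cells (218, 250, 29 and 12), arrector pili or other smooth muscle-like cells (65, 17, 459 and 2) and endothelium-like cells (3, 19, 72 and 23) were too few in some libraries.

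The sequences upstream of 5 members are shown. Over 20 sums of 5 classes and 4 libraries, Lama2, Nid1, Lamb1 and Lamb2 had pairwise Pearson's r of 0.89 to 0.98. They still differed in which of the papilla-like, sheath-like and fibroblast-like cells had the highest level. Hspg2, not shown, had r of 0.87 to 0.94 with these 4. Lama5 was too low for that comparison. Each sequence is the 250 bases before the RefSeq start site on GRCm38.p6, written 5′ to 3′ on the gene's own strand. Capitals mark matches on either strand to the GC box, the TATA box, the CCAAT box or the AP-1 site.
Lama2, chr10:27616943-27617192, minus strand: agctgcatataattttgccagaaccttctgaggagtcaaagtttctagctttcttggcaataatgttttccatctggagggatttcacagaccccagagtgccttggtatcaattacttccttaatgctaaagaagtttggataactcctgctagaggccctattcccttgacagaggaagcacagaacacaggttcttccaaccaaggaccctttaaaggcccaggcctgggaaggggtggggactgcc
Nid1, chr13:13437352-13437601, plus strand: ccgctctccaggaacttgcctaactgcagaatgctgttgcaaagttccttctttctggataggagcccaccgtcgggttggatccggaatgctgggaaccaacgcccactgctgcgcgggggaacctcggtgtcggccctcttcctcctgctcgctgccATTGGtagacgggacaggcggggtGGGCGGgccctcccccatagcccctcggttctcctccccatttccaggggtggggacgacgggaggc
Lamb1, chr12:31265043-31265292, plus strand: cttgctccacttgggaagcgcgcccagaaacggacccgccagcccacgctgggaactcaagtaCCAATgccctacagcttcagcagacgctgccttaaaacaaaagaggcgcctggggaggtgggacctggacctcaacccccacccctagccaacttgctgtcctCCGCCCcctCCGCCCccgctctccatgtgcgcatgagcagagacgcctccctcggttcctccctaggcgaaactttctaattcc
Lamb2, chr9:108479612-108479861, plus strand: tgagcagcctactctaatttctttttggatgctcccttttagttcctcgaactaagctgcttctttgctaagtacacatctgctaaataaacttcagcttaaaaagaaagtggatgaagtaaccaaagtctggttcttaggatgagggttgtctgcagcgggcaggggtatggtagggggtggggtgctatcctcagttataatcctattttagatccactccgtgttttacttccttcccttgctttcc
Lama5, chr2:180225860-180226109, minus strand: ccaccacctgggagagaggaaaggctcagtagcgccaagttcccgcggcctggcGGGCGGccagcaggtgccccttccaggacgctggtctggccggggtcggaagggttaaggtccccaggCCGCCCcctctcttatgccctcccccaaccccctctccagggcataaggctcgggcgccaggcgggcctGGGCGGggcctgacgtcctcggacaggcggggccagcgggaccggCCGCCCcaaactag
The Lama2 window lies inside the longer GENCODE span of the gene, downstream of that annotated start. The windows of Lamb2, Nid1 and Lamb1 also run past the GENCODE starts of these genes, at 108479736, 13437551 and 31265234. The Lama5 window lies wholly before its GENCODE start. The windows of Lama2 and Lamb2 held none of these motifs and had GC contents of 47.2% and 43.6%. The windows of Nid1 and Lamb1 each held 1 CCAAT box, with 1 GC box at Nid1 and 2 at Lamb1, and had GC contents of 64.4% and 62.0%. The Lama5 window held 4 GC boxes and no CCAAT box at 72.4% GC. Among all 32851 windows of this length, 32.7% held a GC box, searched as GGGCGG, and 33.8% held the CCAAT motif. An AP-1 site was in 6.75% of windows and a TATA box in 12.4%, and the median GC content was 52.4%. None of the windows of the 7 members with a RefSeq entry held a TATA box or an AP-1 site. The windows of Lama2 and Lamb2 were thus alike in GC content and in lacking these motifs, and those of Nid1 and Lamb1 differed from them in both. These matches describe letters only.

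Across cell classes, the members fell into distinct patterns that were the same in all 4 libraries for most pairs of classes. Lama2 and Lamb1 were highest in dermal papilla-like cells, Nid1 and Nid2 in dermal sheath-like cells, and Lama4, Lamc1 and Hspg2 in dermal fibroblast-like cells among the 5 classes with 50 or more cells everywhere. Lama5 was nearly absent from all 3 of these mesenchymal classes and was found in pericyte-like, smooth muscle-like and endothelium-like cells. These rankings are descriptions of whole classes over 4 libraries of 2 pooled mice each, and the intervals given with them cover counting error only. They did not hold in each cluster of a class.

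**Figure D1:**
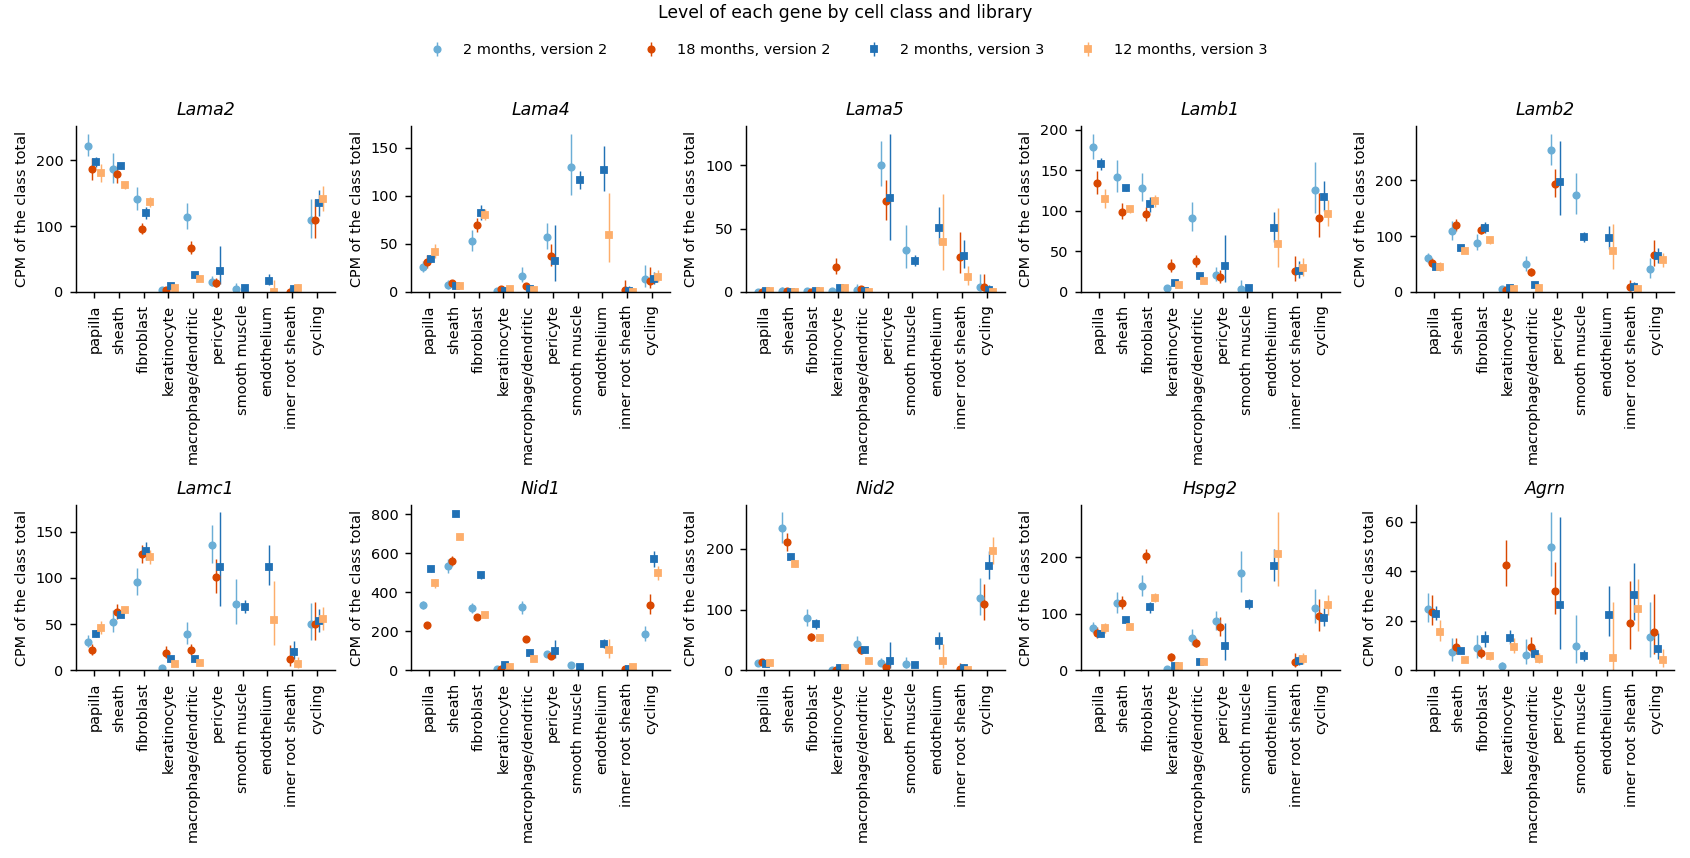
CPM of each of the 10 members (1 panel each, vertical axis in CPM) in 10 cell classes, with 1 point per library for classes of at least 20 cells and bars for the exact 95% Poisson interval. Among the 5 classes with 50 or more cells everywhere, Nid2 is highest in dermal sheath-like cells (176 to 234 CPM). It is low in dermal papilla-like cells (11.2 to 13.2 CPM). In the 12-month library, cycling cells (196 CPM) lie above sheath-like cells (176 CPM). Lama5 stands out in pericyte-like cells (71.5 to 101 CPM).

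Lama2 lies on chromosome 10 (26980036 to 27619758, minus strand, GRCm38) and encodes the alpha 2 chain of merosin, the laminin best known from muscle and peripheral nerve. Its level in papilla-like cells was 223, 186, 197 and 181 CPM, and in sheath-like cells 188, 179, 191 and 162 CPM. Fibroblast-like cells had 141, 96.0, 119.6 and 136 CPM. Papilla-like cells were above sheath-like cells in 4 of 4 libraries, but only by 1.03 to 1.19 times with overlapping ranges, and both were above fibroblast-like cells in each library. Keratinocyte-like cells, deeper at a median of 15770 to 26963 UMIs, had 2.11 to 8.51 CPM of Lama2, 23.2 to 106 times less than papilla-like cells. With every cell thinned to 3000 UMIs, a Lama2 UMI was seen in 48.2%, 44.0%, 44.4% and 45.4% of papilla-like cells and in 0.823%, 0%, 2.68% and 1.23% of keratinocyte-like cells. Before thinning these shares were 66.5%, 61.8%, 77.7% and 72.8% of papilla-like cells, at a median of 5035 to 8256 UMIs, and 5.35%, 5.41%, 17.9% and 10.2% of keratinocyte-like cells.

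Lama4 (chromosome 10, 38965515 to 39110188, plus strand) encodes the alpha 4 chain, a short-armed laminin chain of vessels and mesenchyme. In fibroblast-like cells it was at 52.6, 69.0, 82.3 and 80.2 CPM, and in papilla-like cells at 25.7, 31.3, 33.8 and 41.8 CPM. Sheath-like cells had 6.73, 9.10, 6.47 and 6.08 CPM. The classes did not overlap: fibroblast-like cells were 1.92 to 2.43 times above papilla-like cells and 7.58 to 13.2 times above sheath-like cells in the same library. Smooth muscle-like cells of both 2-month libraries stood above them, at 129 and 116 CPM. Endothelium-like cells had 127 CPM at 2 months of version 3 (120 UMIs in 72 cells) and 59.1 CPM at 12 months (12 UMIs in 23 cells). The latter value was below that of the fibroblast-like cells of the same library, but it rests on few UMIs.

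Lama5 (chromosome 2, 180176373 to 180225859, minus strand) encodes the alpha 5 chain, the alpha chain of most mature epithelial and vascular basement membranes. In papilla-like cells it had 0, 0, 3 and 1 UMIs, and in sheath-like cells 1, 1, 6 and 4 UMIs. A count of 3 UMIs corresponded to 1.02 and 1.13 CPM in the papilla-like cells of the 2 version 2 libraries, which sets the limit that a count of 0 allows. Pericyte-like cells had 101, 71.5 and 74.5 CPM in the 3 libraries with 20 or more such cells, and a Lama5 UMI was seen in 24.8%, 19.2% and 24.1% of them after thinning to 3000 UMIs (39.4%, 26.8% and 37.9% unthinned), against 0% of papilla-like and sheath-like cells in each library. Smooth muscle-like cells of the 2-month libraries had 32.8 and 24.5 CPM, and endothelium-like cells of version 3 had 50.8 and 39.4 CPM. Inner root sheath and hair shaft-like cells had 27.5, 28.4 and 11.4 CPM in the libraries with 20 or more of them.

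The alpha chains were next compared as shares of their summed UMIs, which need no library scaling. The 3′ method counts 1 end of each molecule, so its counts do not grow with gene length, but capture can differ between genes. Lama2 made up 96.2%, 95.02%, 96.6% and 96.3% of the alpha chain UMIs in sheath-like cells and 89.6%, 85.6%, 85.3% and 81.1% in papilla-like cells. In fibroblast-like cells it made up 72.6%, 58.1%, 59.1% and 62.7%, and nearly all the rest was Lama4, with 27.1%, 41.8%, 40.6% and 37.0%. Lama4 held 77.9% (95% Clopper-Pearson interval 67.7 to 86.1) and 79.1% (76.1 to 81.9) in smooth muscle-like cells at 2 months. Lama5 held 58.3% (51.4 to 64.9), 59.0% (50.5 to 67.1) and 53.8% (33.4 to 73.4) in pericyte-like cells of the first 3 libraries. Each of the 3 alpha chains thus took most of the alpha chain UMIs in at least 1 class.

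**Figure D2:**
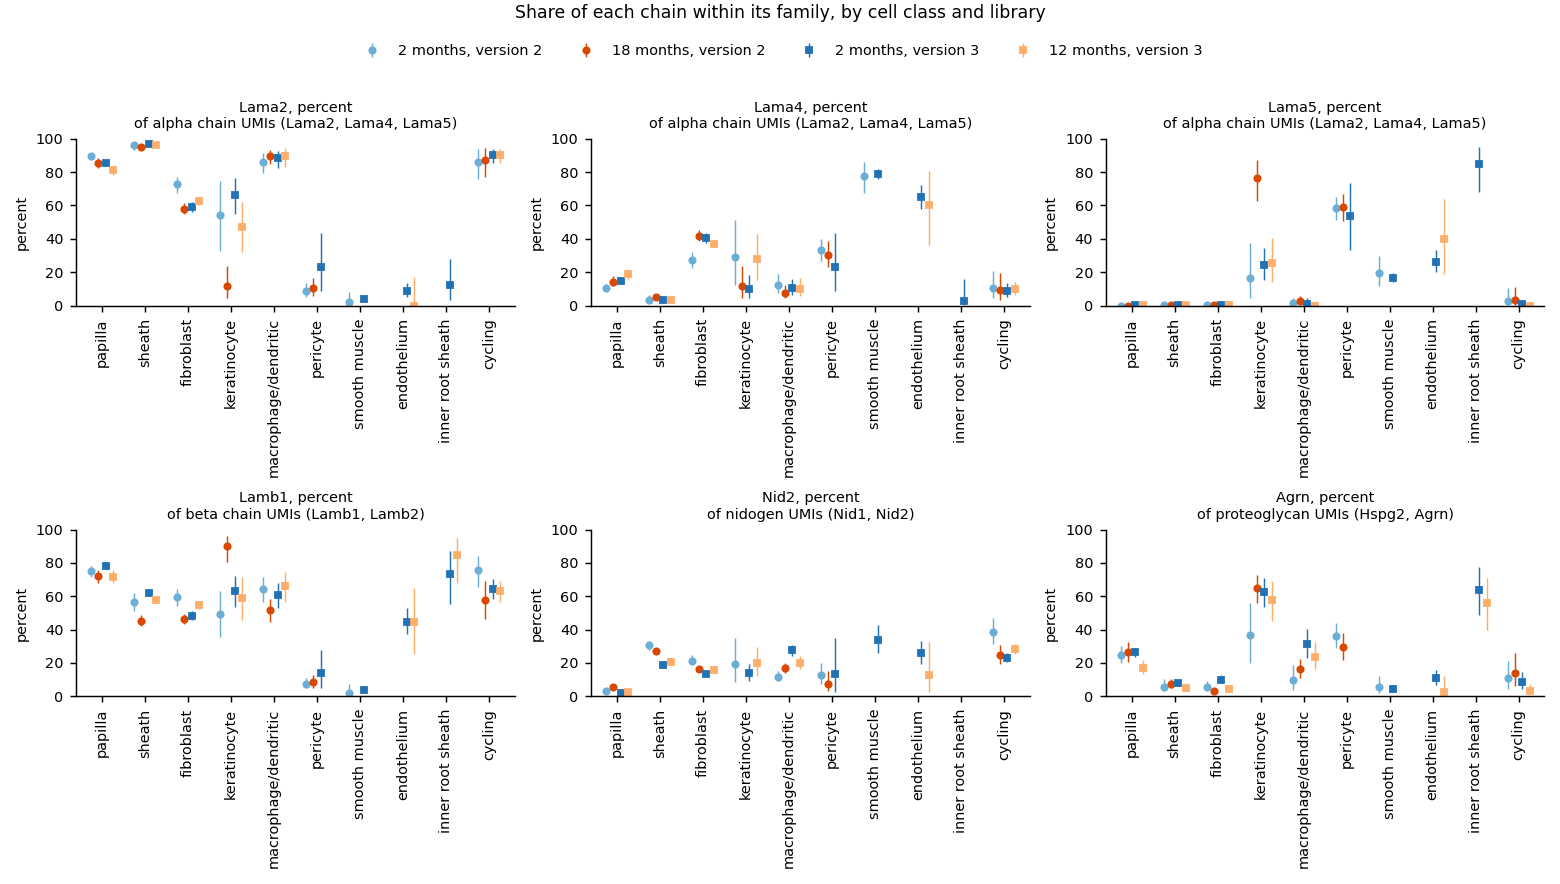
Share (%) of the UMIs of each gene family held by Lama2, Lama4 and Lama5 (alpha chains), Lamb1 (beta chains), Nid2 (nidogens) and Agrn (proteoglycans), by cell class and library, for families with at least 20 UMIs, with 95% Clopper-Pearson bars. Lama2 holds 95.02% to 96.6% in sheath-like cells, and Lama5 holds 53.8% to 59.0% in pericyte-like cells.

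The beta chains split the classes in another way. Lamb1 (chromosome 12, 31265234 to 31329644, plus strand), the beta 1 chain, was at 179, 134, 157 and 115 CPM in papilla-like cells. In sheath-like cells it was at 142, 98.8, 128 and 101 CPM, below papilla-like cells in each library. Fibroblast-like cells had 128, 96.0, 108 and 112 CPM, below sheath-like cells in 3 of 4 libraries, and these 2 neighbours overlapped. Lamb2 (chromosome 9, 108479736 to 108490530, plus strand), the beta 2 chain known from synapses and vessel walls, was lowest of the 3 mesenchymal classes in papilla-like cells, at 59.9, 52.0, 44.3 and 45.0 CPM. Fibroblast-like cells had 88.1, 112, 115 and 92.6 CPM and sheath-like cells 109, 119.4, 78.0 and 73.8 CPM, and each of them was the higher one in 2 of 4 libraries. Pericyte-like cells had the highest Lamb2 among the classes shown in the first 3 libraries, at 254, 194 and 197 CPM. Lamb1 held 74.9%, 72.0%, 78.0% and 71.8% of the beta chain UMIs in papilla-like cells, but 7.49%, 8.37% and 14.0% in pericyte-like cells and 2.2% and 4.0% in smooth muscle-like cells of the 2-month libraries.

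Lamc1 (chromosome 1, 153218922 to 153332786, minus strand) encodes the gamma 1 chain, which is shared by most laminins. It was at 95.3, 125, 129 and 123 CPM in fibroblast-like cells. Sheath-like cells had 52.5, 63.5, 59.9 and 65.3 CPM and papilla-like cells 31.1, 22.2, 39.7 and 46.1 CPM, so that the order fibroblast, sheath, papilla held in each library without overlap. Papilla-like cells, with the highest Lama2 and Lamb1, thus had the lowest Lamc1 of the 3. Lamc3, another gamma chain, from the list of other laminin and netrin chains, was at 153, 109.6, 272 and 157 CPM in papilla-like cells. It was at 75.3, 79.1, 100.5 and 82.6 CPM in sheath-like cells and 48.2, 20.2, 31.1 and 38.1 CPM in fibroblast-like cells, the reverse of the Lamc1 order. Lama3, the alpha chain of laminin 332 in the epidermal basement membrane, was at 0 in papilla-like cells and at 2.92, 9.45, 13.9 and 12.8 CPM in keratinocyte-like cells.

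The chains of 1 trimer were rarely seen together in a cell at equal depth. After thinning to 3000 UMIs, cells with a UMI of each of Lama2, Lamb1 and Lamc1 made up 1.30%, 0.922%, 1.73% and 2.29% of papilla-like cells, 2.03%, 2.26%, 2.22% and 2.12% of sheath-like cells, and 6.15%, 3.32%, 4.08% and 2.00% of fibroblast-like cells. Before thinning the shares of sheath-like cells were 15.7%, 16.4%, 39.0% and 35.0%. Cells with no UMI of any of the 10 members made up 2.54%, 4.52%, 4.00% and 6.63% of thinned sheath-like cells, against 89.3%, 71.2%, 76.3% and 84.0% of thinned keratinocyte-like cells. The shares with all 3 chains rose with depth in each of these 3 mesenchymal classes, so they do not count the cells that make the trimer.

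Nid1 (chromosome 13, 13437551 to 13512269, plus strand), which links laminin to collagen IV, had the highest CPM of the 10 members in each of the 3 mesenchymal classes. In sheath-like cells it was at 533, 559.8, 798 and 682 CPM. Papilla-like cells had 335, 231, 516 and 446 CPM, lower than sheath-like cells in the same library by 1.53 to 2.43 times. Fibroblast-like cells had 317, 274, 486 and 281 CPM, below papilla-like cells in 3 of 4 libraries. Keratinocyte-like cells had 5.35 to 26.1 CPM. Thinned to 3000 UMIs, 72.6%, 71.9%, 83.9% and 78.2% of sheath-like cells and 2.9%, 2.7%, 7.6% and 4.3% of keratinocyte-like cells had a Nid1 UMI, and 53.8%, 43.8%, 70.1% and 63.7% of papilla-like cells did.

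Nid2 (chromosome 14, 19751265 to 19811787, plus strand), the second nidogen, separated the mesenchymal classes more sharply than any other member except Lama5, whose counts there were at or near 0. Sheath-like cells had 234, 211, 186 and 176 CPM, fibroblast-like cells 86.4, 54.7, 76.0 and 53.3 CPM, and papilla-like cells 11.5, 13.2, 11.2 and 11.8 CPM. The ranges of the 3 classes did not overlap, and sheath-like cells were 14.9 to 20.3 times above papilla-like cells of the same library. Keratinocyte-like cells had 1.30, 0.995, 4.18 and 4.19 CPM. At 3000 UMIs, 49.7%, 42.5%, 40.1% and 35.7% of sheath-like cells had a Nid2 UMI, against 3.7%, 3.9%, 2.8% and 3.4% of papilla-like cells and 0.4%, 0%, 1.8% and 1.9% of keratinocyte-like cells. Unthinned shares were 71.6%, 64.3%, 81.5% and 73.7% of sheath-like cells and 6.1%, 7.0%, 10.6% and 10.6% of papilla-like cells. As a share of both nidogens, Nid2 was 30.5%, 27.3%, 18.9% and 20.5% in sheath-like cells and 3.32%, 5.41%, 2.13% and 2.58% in papilla-like cells. Sheath-like cells were 11.7%, 18.8%, 42.6% and 45.8% of the kept cells and gave 51.3%, 62.0%, 85.3% and 82.8% of all Nid2 UMIs. Cells of the cycling cluster also carried Nid2, at 118, 109, 172 and 196 CPM. The last value was above the 176 CPM of sheath-like cells in the same library.

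Hspg2 (chromosome 4, 137468769 to 137570630, plus strand) encodes perlecan, a large proteoglycan that binds growth factors. It was at 149.5, 202, 111 and 129 CPM in fibroblast-like cells, at 119.1, 119.7, 89.8 and 76.2 CPM in sheath-like cells and at 75.8, 66.3, 63.8 and 75.0 CPM in papilla-like cells, in that order in each library. Endothelium-like cells of the version 3 pair had 185 and 207 CPM. Agrn (chromosome 4, 156165290 to 156197488, minus strand), the organiser of the neuromuscular synapse that also occurs in many basement membranes, was highest of the 3 mesenchymal classes in papilla-like cells, at 24.7, 23.7, 22.9 and 15.6 CPM. Sheath-like cells had 7.40, 9.62, 7.78 and 4.01 CPM and fibroblast-like cells 8.86, 6.98, 12.5 and 5.65 CPM, and these 2 overlapped. Pericyte-like cells had 49.9, 32.0 and 26.6 CPM of Agrn in the first 3 libraries. Of the UMIs of both proteoglycans, Agrn held 24.6%, 26.4%, 26.4% and 17.2% in papilla-like cells, 5.85%, 7.44%, 7.97% and 5.00% in sheath-like cells and 36.7%, 64.7%, 62.5% and 57.7% in keratinocyte-like cells.

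In macrophage and dendritic-like cells, 8 of 10 members were highest in the 2-month version 2 library, Agrn and Lama5 being the exceptions. Nid1 was at 322, 162, 87.1 and 58.2 CPM there, Lama2 at 114, 66.9, 25.4 and 19.4 CPM and Lamb1 at 91.1, 37.5, 19.1 and 12.8 CPM. The summed CPM of the 18 dermal papilla markers in the same cells was 4153, 1646, 782 and 420, with none of the 18 at 0, so it followed the same order. The sum of the 12 dermal sheath markers was 1977, 2229, 1497 and 988 CPM. The part of either in the members' levels was not tested.

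Within a class, clusters differed as well. In sheath-like cells the main cluster changed from library to library: cluster 12 held 166 and 219 cells of the version 2 pair, cluster 0 held 1617 cells of the 2-month version 3 library, cluster 2 held 1345 cells of the 12-month library, and cluster 3 held 12, 189, 626 and 442 cells. Nid1 was at 537 and 673 CPM in cluster 12, at 875 CPM in cluster 0 at 2 months of version 3 and at 749 CPM in cluster 2 at 12 months, but at 351, 564 and 402 CPM in cluster 3 of the 18-month, 2-month version 3 and 12-month libraries. Nid2 was at 85.4, 116 and 78.0 CPM in cluster 3 of those libraries, less than in the other sheath-like clusters, where it was at 181 to 287 CPM. Lama4 went the other way, with 17.5, 15.3 and 18.2 CPM in cluster 3 and 1.91 to 7.19 CPM in cluster 12. In cluster 0 it was at 21.0 CPM at 18 months (7 UMIs in 43 cells), 3.85 CPM at 2 months of version 3 and 9.44 CPM at 12 months. Clusters 0 and 3 carried fewer sheath markers than the others, with 4 and 3 of 12 passing.

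Among fibroblast-like cells, cluster 8 had the most Nid1, at 463, 397, 598 and 522 CPM, and the most Nid2, at 138, 107, 149.6 and 129.5 CPM. Cluster 11, which was mostly from the 12-month library, had 142 and 152 CPM of Nid1 and 3.79 and 4.40 CPM of Nid2 in the version 3 pair, with 102 and 118 CPM of Lama4. Both nidogens thus differed several-fold among fibroblast-like clusters of the same library. In the 2-month version 2, 18-month and 12-month libraries, cluster 7 had 28.7, 63.1 and 29.4 CPM of Lama4. Its Hspg2 was at 147, 220 and 68.8 CPM and its Lamc1 at 31.7, 117 and 75.0 CPM. At 12 months its Lama4 and Hspg2 were below those of papilla-like cells, at 41.8 and 75.0 CPM. At 2 months of version 2 its Lamc1 was below that of sheath-like cells, at 52.5 CPM. In papilla-like cells the 2 clusters were almost the 2 chemistries, since cluster 5 held 536 and 425 cells of version 2 and cluster 1 held 1050 and 351 of version 3. Nid2 was at 11.6 and 13.2 CPM in the first and 10.8 and 11.9 CPM in the second.

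**Figure D3:**
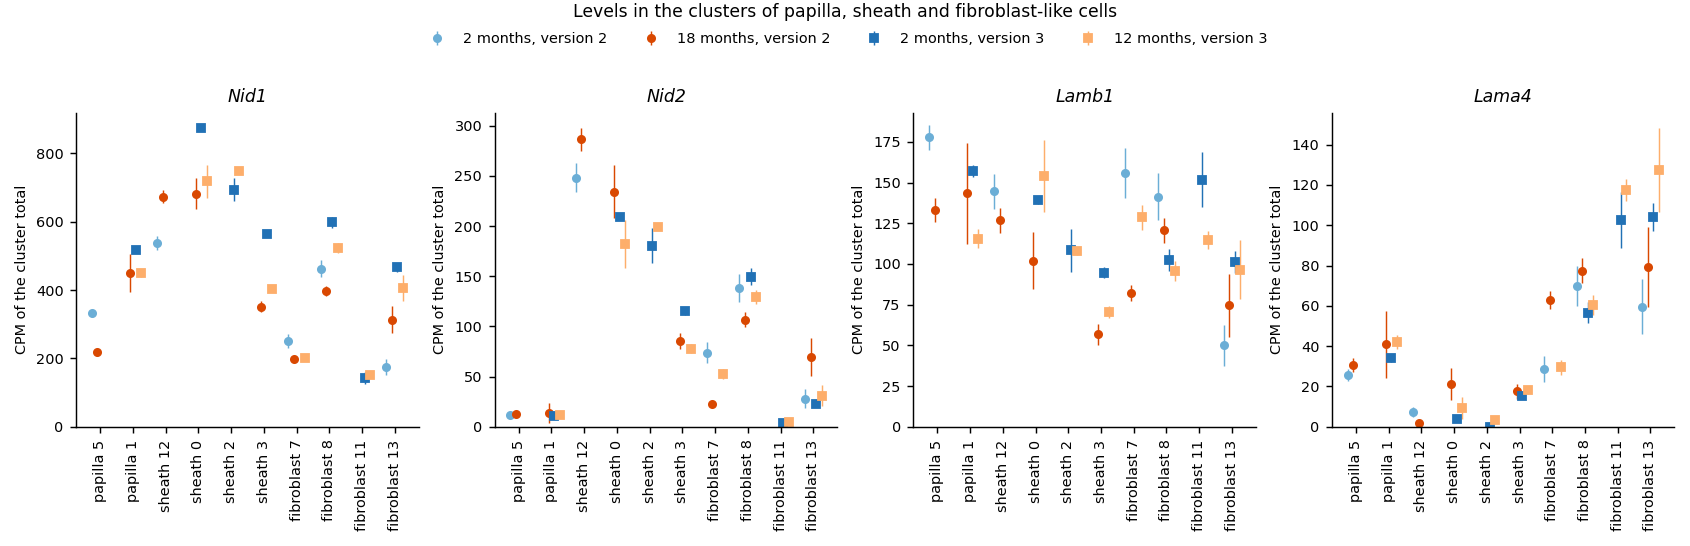
CPM of Nid1, Nid2, Lamb1 and Lama4 by cluster within papilla-like (clusters 5 and 1), sheath-like (12, 0, 2 and 3) and fibroblast-like (7, 8, 11 and 13) cells, with 1 point per library for clusters of at least 20 cells and bars of 1 counting standard error. In the same library, Nid1 and Nid2 are lower in sheath-like cluster 3 than in the main sheath-like cluster, and higher in fibroblast-like cluster 8 than in the other fibroblast-like clusters.

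The next comparison asked how the members differed with age within each chemistry. In papilla-like cells Lamb1 went from 179 to 134 CPM in the 18-month pair and from 157 to 115 CPM in the 12-month pair, ratios of older to 2-month cells of 0.75 (95% counting interval 0.65 to 0.86) and 0.73 (0.65 to 0.81). Nid1 had ratios of 0.69 (0.62 to 0.76) and 0.86 (0.82 to 0.91), and Lama2 had 0.84 (0.74 to 0.94) and 0.91 (0.84 to 1.00). Agrn had 0.96 (0.67 to 1.36) and 0.68 (0.50 to 0.92). These 4 of 10 members were lower at the older age in both pairs, beside 31.1% of the 11354 genes tested. Lama4 and Nid2 were higher in both, beside 22.3% of genes, and Lama4 had ratios of 1.22 (0.88 to 1.68) and 1.24 (1.01 to 1.501). Because 1 library stands for each age in a pair, these intervals do not hold the spread between mice. Over all genes in papilla-like cells the median log2 ratio was 0.01 at 18 months and -0.09 at 12 months, and the members' median was -0.21 and 0.05.

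In sheath-like cells Lamb1 was the 1 member whose interval lay below a ratio of 1 in both pairs. It went from 142 to 98.8 CPM at 18 months, a ratio of 0.70 (0.59 to 0.83), and from 128 to 101 CPM at 12 months, a ratio of 0.79 (0.75 to 0.83). Lama2, Lama5 and Nid2 were also lower in both pairs, which made 4 of 10 members beside 29.1% of the 12639 genes tested. Lama5 had only 1, 1, 6 and 4 UMIs there and was not among the genes tested. The Nid2 ratios were 0.90 (0.79 to 1.02) and 0.94 (0.91 to 0.98), and those of Lama2 were 0.95 (0.83 to 1.10) and 0.85 (0.81 to 0.88). Lamc1 was higher in both pairs, at 1.21 (0.93 to 1.58) and 1.09 (1.02 to 1.17), beside 27.3% of genes. Nid1 had ratios of 1.05 (0.97 to 1.14) and 0.85 (0.84 to 0.87), and Agrn of 1.30 (0.65 to 2.83) and 0.52 (0.41 to 0.65). Most sheath-like cells of the version 3 pair were in cluster 0 at 2 months and in cluster 2 at 12 months. In the version 2 pair cluster 3 held 12 of 197 sheath-like cells at 2 months and 189 of 456 at 18 months. At 18 months Lamb1 was at 56.9 CPM in cluster 3 and at 127 CPM in cluster 12. The part of these shifts in the class ratios was not tested. Within single clusters the 12-month to 2-month ratio of Lamb1 was 0.74 (0.65 to 0.85) in cluster 3, 1.00 (0.78 to 1.29) in cluster 2 and 1.11 (0.82 to 1.47) in cluster 0, and the 18-month ratio in cluster 12 was 0.88 (0.72 to 1.07). The lower Lamb1 of the whole class was therefore not seen in each of its clusters. In cluster 12 the 18-month ratios of Nid2 and Lama2 were 1.15 (1.004 to 1.33) and 1.00 (0.849 to 1.18), and that of Nid1 was 1.25 (1.14 to 1.38). The Nid2 interval lay above 1 in that cluster, while the Nid2 ratio of the whole class was 0.90.

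In fibroblast-like cells both nidogens were lower at the older age over the class as a whole, whose cells lay in different clusters by age. Nid1 had ratios of 0.87 (0.79 to 0.95) and 0.58 (0.55 to 0.61), and Nid2 of 0.63 (0.52 to 0.77) and 0.70 (0.61 to 0.80). With Lama5 and Agrn, 4 of 10 members were lower in both pairs, beside 35.9% of the 11803 genes tested. Lama5 had only 1, 1, 3 and 5 UMIs there and was not among the genes tested. Hspg2 was the 1 member higher in both, at 1.35 (1.18 to 1.55) and 1.15 (1.04 to 1.28), beside 22.0% of genes. Lama2 and Lamb2 had opposite ratios in the 2 pairs. Cluster 11, low in both nidogens, held 47 of 425 fibroblast-like cells at 2 months of version 3 and 322 of 720 at 12 months, and its Nid1 went from 142 to 152 CPM. Cluster 13 held 39 and 34 cells of the version 2 pair. Its Nid1 went from 175 to 313 CPM and its Nid2 from 28.2 to 69.5 CPM. In the version 3 pair cluster 13 held 214 of 425 fibroblast-like cells at 2 months and 44 of 720 at 12 months. There its Nid1 went from 466 to 406 CPM and its Nid2 from 23.2 to 31.0 CPM. Cluster 7 held 98 of 244 fibroblast-like cells at 2 months of version 2 and 418 of 691 at 18 months. Its 18-month ratios were 0.788 (0.663 to 0.941) for Nid1 and 0.304 (0.208 to 0.447) for Nid2. Those of Lama2 and Lamc1 in cluster 7 were 0.485 (0.389 to 0.609) and 3.69 (2.38 to 6.03), and Hspg2 went from 147 to 220 CPM. In cluster 8, the fibroblast-like cluster best filled everywhere (88 cells or more), its ratios were 0.86 and 0.87 for Nid1, 0.77 (0.60 to 0.99) and 0.87 (0.74 to 1.01) for Nid2, and 1.17 and 0.86 for Hspg2. In fibroblast-like cells the summed fibroblast marker list was 13614, 27591, 19406 and 24564 CPM, with 11 of 22 genes higher in both pairs and 5 lower. The sheath list was 2537, 1592, 2294 and 2185 CPM, with 7 of 12 lower in both pairs and 1 higher. The papilla list was 1045, 490, 511 and 491 CPM, with 10 of 18 lower and 3 higher. Marker genes of other cell types also differed between ages in these cells: the summed melanocyte list was 3344, 57.1, 738 and 68.0 CPM, with 5 of 6 genes lower in both pairs. The lymphatic endothelium list was 1607, 533, 1395 and 366 CPM, with 6 of 6 lower, and the blood endothelium list 225, 119.7, 246 and 100.5 CPM, with 9 of 12 lower. The macrophage and dendritic list was 600.4, 579, 3892 and 239 CPM, with 6 of 17 lower in both pairs, and the mast cell list 4.99, 0.943, 69.6 and 2.03 CPM, with 1 of 5 lower. The keratinocyte list went from 1115 to 380 and from 348 to 162 CPM in papilla-like cells, and from 1019 to 441 and from 325 to 200 CPM in sheath-like cells, with 12 and 9 of 15 genes lower in both pairs. The part of these markers in the members' ratios was not tested.

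**Figure D4:**
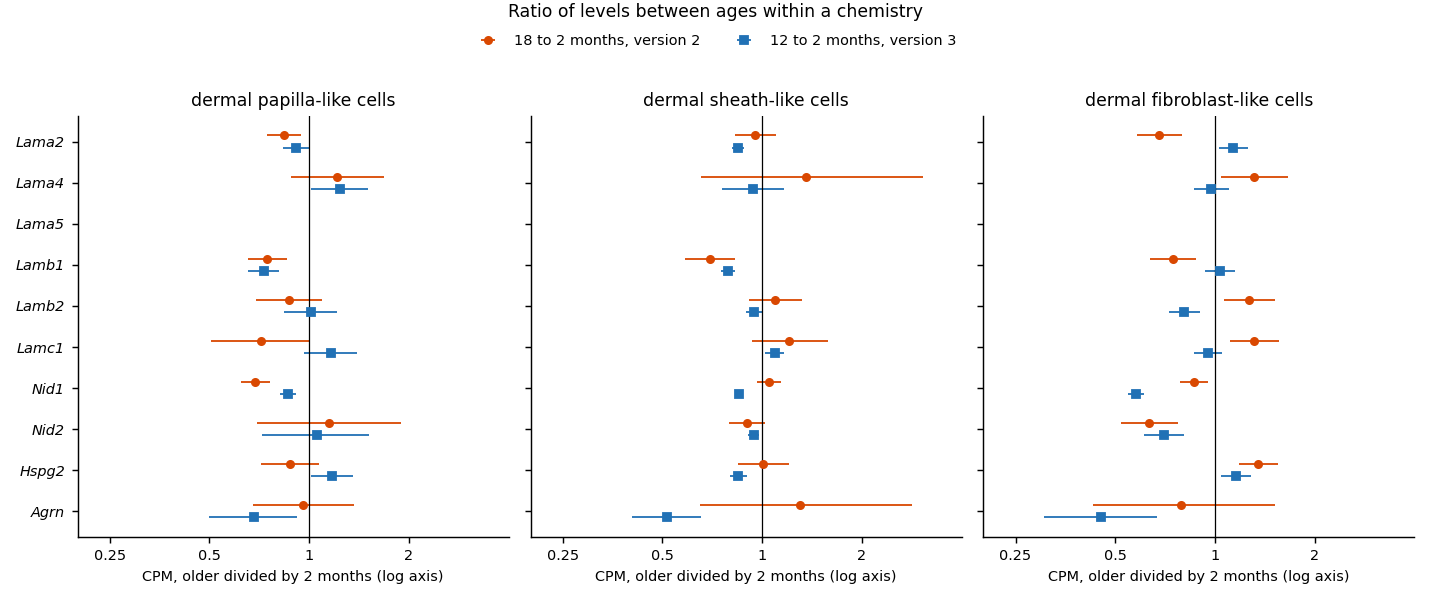
Ratio of CPM at the older age to CPM at 2 months (log axis) for the members in papilla-like, sheath-like and fibroblast-like cells, by pair, with 95% counting intervals, for members with at least 10 UMIs in both libraries. Lamb1 lies below 1 in both pairs in papilla-like (0.75 and 0.73) and sheath-like cells (0.70 and 0.79), and both nidogens lie below 1 in fibroblast-like cells.

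The other 2 classes held larger ratios, with the makeup of the class changing as well. In keratinocyte-like cells at 18 months, Agrn went from 1.78 to 42.8 CPM, a ratio of 24.0 (12.8 to 49.8), and Lama5 from 0.648 (4 UMIs) to 19.4 CPM, a ratio of 29.9 (10.8 to 115). At 12 months the Agrn ratio was 0.73. Of the 243 keratinocyte-like cells of the 2-month version 2 library, 217 were in cluster 15, which held 2 of the 111 cells at 18 months. In cluster 16, with 26 and 51 cells, Agrn went from 19.8 to 124 CPM in the version 2 pair and from 50.0 to 28.9 CPM in the version 3 pair. In that class 1 member (Lama4) was higher in both pairs, beside 35.9% of the 10559 genes tested, and 1 (Lamb2) was lower, beside 17.3%. In macrophage and dendritic-like cells 7 of 10 members were lower in both pairs and 0 higher, beside 53.7% and 12.5% of the 11569 genes tested. Their Nid1 ratios were 0.51 and 0.67, and 17 of 18 papilla markers were also lower in both pairs. The part of these markers was not tested.

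Over all cells of a library, Lama5 went from 9.96 to 7.92 CPM, a ratio of 0.80 (0.63 to 1.00), and from 3.68 to 0.911 CPM, a ratio of 0.25 (0.18 to 0.34). It was the 1 member lower in both pairs, beside 29.1% of the 15458 genes tested. Pericyte-like cells gave 79.4% and 55.9% of the Lama5 UMIs in the version 2 pair, and smooth muscle-like cells, which numbered 459 at 2 months and 2 at 12 months, gave 51.2% in the 2-month version 3 library. Within pericyte-like cells of the version 2 pair the Lama5 ratio was 0.71 (0.53 to 0.94). Lamc1 and Nid2 were higher in both pairs, beside 26.0% of genes. The fraction of cells in each class differed between ages, so these whole-library ratios mix levels with makeup.

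Across all 4 libraries the ages were tested with edgeR's quasi-likelihood test of older mice (12 and 18 months) against 2-month mice, on counts summed over a class, with chemistry as a covariate and 1 residual degree of freedom. Lamb1 in sheath-like cells was the 1 member past an adjusted p of 0.05 (Benjamini-Hochberg over all genes tested). It fell by 0.40 on the log2 scale (SE 0.13, adjusted p = 0.0362, lower in 2 of 2 pairs), in a class where 603 of 12639 genes passed (4.77%). With the version 2 libraries exchanged its ratio in that pair would be 1.44, opposite to the version 3 pair. The call was lost, with an adjusted p = 1.00, in DESeq2, and with an adjusted p = 0.212 when likely doublets were kept. With finer clusters its adjusted p was 0.268, and over all alternatives it ranged from 0.0351 to 1.00. In papilla-like cells, where 214 of 11354 genes passed (1.88%), none of the 9 members tested did: Lamb1 had a log2 difference of -0.41 (SE 0.18, adjusted p = 0.426) and Nid1 of -0.34 (SE 0.18, adjusted p = 0.604). In fibroblast-like cells 5 of 11803 genes passed (0.0424%), none of them a member. There Nid2 had -0.50 (SE 0.16, adjusted p = 0.360) and Hspg2 0.40 (SE 0.16, adjusted p = 0.491). In macrophage and dendritic-like cells 246 genes passed (2.13%) and no member did. No gene passed over all cells or in keratinocyte-like cells (0.00% each), where 1698 (11%) and 491 genes (4.65%) had an unadjusted p under 0.05 and DESeq2 called 386 and 8.

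The other genes of the basement membrane were taken from 5 lists with 71 genes. In sheath-like cells, 1 of 6 tested basement membrane collagens fell, 4 of 13 associated proteins fell, and 1 of 13 receptors rose, beside 1.60% of all genes called lower and 3.17% called higher. None of 6 other laminin and netrin chains and none of 20 genes for assembly, crosslinking and heparan sulfate synthesis passed. The collagen was Col15a1, of the vessel and muscle basement membrane zone, with a log2 change of -0.41 (SE 0.12, adjusted p = 0.0191, edgeR). The largest falls of the associated proteins were those of Egfl6, a ligand of Itga8, and Fras1, an anchor of the epidermal basement membrane. Egfl6 fell by 0.89 (SE 0.26, adjusted p = 0.0171, edgeR) and Fras1 by 0.61 (SE 0.20, adjusted p = 0.0464, edgeR). Hmcn1 and Fbln2 fell too, by 0.55 and 0.42. The receptor was Sdc4, a transmembrane heparan sulfate proteoglycan, which rose by 0.72 (SE 0.14, adjusted p = 1.9e-05, edgeR). Col4a1, the main collagen IV chain, was at 569, 489.8, 971 and 801 CPM in sheath-like cells and did not pass, with a log2 difference of -0.24. The median log2 difference over the tested members in sheath-like cells was -0.11, beside -0.23 over the collagens and 0.00 over all genes.

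In papilla-like cells 3 of the 51 listed genes that were tested passed, all associated proteins, beside 1.31% of all genes called higher and 0.572% called lower. Tinagl1, a matricellular protein that binds laminin, rose by 1.82 (SE 0.45, adjusted p = 0.0127, edgeR), and Tnxb, a tenascin of loose connective tissue, by 1.57 (SE 0.44, adjusted p = 0.0486, edgeR). Hmcn1, a fibulin family member, fell by 0.90 (SE 0.20, adjusted p = 0.0037, edgeR). Hmcn1 was thus called lower in both follicle classes. In macrophage and dendritic-like cells Frem1, a partner of Fras1, fell by 1.41 (adjusted p = 0.0202, edgeR), beside 0.493% of genes called lower. No listed gene passed in fibroblast-like or keratinocyte-like cells or in all cells together. Unlike those of the members, the calls of these listed genes were not followed by pair, by cluster or under the alternative settings. The number of genes called in sheath-like and in papilla-like cells changed strongly under some of those settings.

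Finally, each member was set beside the 8474 genes with a mean of at least 10 CPM over the 20 sums of 5 classes and 4 libraries, by Pearson's r of log2(CPM + 1). These r values describe likeness over points that share libraries. The genes most like Lama2 were Robo2 (r = 0.994), Cdh11 (0.992) and the basement membrane collagen Col15a1 (0.991). Those most like Nid1 were Rftn2 (0.987), Naalad2 (0.986) and Dact3 (0.985), and those most like Nid2 were Gprc5b (0.986), Papss2 (0.972) and Ccdc80 (0.969). For Hspg2 they were Cercam (0.983), Serpinh1 (0.982) and Lhfp (0.980), for Lamb1 Armcx2 (0.990), for Lamb2 Ehbp1 (0.982), for Lamc1 Bmp1 (0.980) and for Lama4 Col5a3 (0.970). Agrn had no gene above 0.815, which was reached by Crim1, and Lama5 fell below the level needed. Among the members themselves Lama2 and Nid1 were the most alike of those compared here, at 0.978. Hspg2 followed with r of 0.947 with Lamc1, 0.9365 with Lamb2 and 0.9352 with Lamb1. Lama2 had 0.9286 with Lamb2 and 0.9281 with Lamb1, while Nid2 and Agrn were at -0.32.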

How the data were processed

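Raw UMI counts per gene and cell barcode were used as the authors deposited them, in 4 matrices of 27999 gene rows. Per the submitters' processing notes, Cell Ranger 2.0.1, STAR, Seurat 2.1.0 and mm10 (GRCm38.p5) were named, while the matrix headers give software version 3.0.1. Doublet removal and filters applied upstream are not given in the sources used here.

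From these counts, barcodes with at least 500 genes, 1000 UMIs and under 10% mitochondrial UMIs were retained, and the 3% with the top Scrublet scores in each library were taken out, the doublet rate that the design text estimates. Scrublet's own threshold marked 2 to 11 barcodes and was not used. Leiden clustering (scanpy 1.11.5, igraph 0.11.9, resolution 0.5) used 2000 variable genes, 30 components and 15 neighbours, without the 81 basement membrane genes. A cluster took a name from at least 3 markers among its 100 leading genes. For clusters 0 and 3 all passing markers were used, a fallback set after their markers were seen and before ages were compared. The names are rebuilt and may differ from the study's.

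CPM are a class's summed counts per 1000000 UMIs of that class. Ratios carry exact conditional Poisson intervals and shares carry Clopper-Pearson intervals, at a confidence of 95%. Neither includes variation between mice. Four-library fits used edgeR 4.0.16 in R 4.3.3 with Benjamini-Hochberg adjustment, and DESeq2 1.42.0 as an alternative. The scripts were tested on simulated data. For shares of cells with a UMI, cells were thinned to 3000 UMIs and shallower ones left out, 0 to 42 of the sheath-like cells per library. Gene positions are GENCODE vM21 on GRCm38 and upstream sequences are RefSeq's on GRCm38.p6, which matched 7 of 10 members. The TATA box was searched as TATAAA and the AP-1 site as TGANTCA, on both strands. All 10 members are reported, and the genes named from other lists are the 2 highest and 2 lowest past the threshold per class, together with the 3 most alike genes per member. Col15a1, Hmcn1 and Fbln2 in sheath-like cells, and Col4a1, Lamc3, Lama3, Frem1, Dag1, Itga6 and Itgb4 were named outside that rule, after their values were seen. The members and lists were chosen with earlier results of these data known. Nothing in the labels says whether the 2 mice of a library are separable, so each library is 1 sample.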

Additional observations from a re-analysis of the deposited data

Results flagged for a closer look

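In 8 of 60 combinations of a member and a class, the 95% counting intervals of the older-to-2-month ratio lay on opposite sides of 1 in the 2 pairs. The differences between pairs were not tested, and age, chemistry and reporter line cannot be told apart between them. Over all cells, the ratios at 18 months (version 2) and 12 months (version 3) were 1.17 and 0.912 for Lama2, 1.36 and 0.833 for Lama4, 1.31 and 0.931 for Lamb2, 1.41 and 0.862 for Nid1, and 1.31 and 0.542 for Agrn. Sheath-like cells, with the highest Nid1, were 11.7% and 18.8% of the version 2 cells, and 42.6% and 45.8% of the version 3 cells.

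In fibroblast-like cells the ratios were 0.68 and 1.14 for Lama2 and 1.27 and 0.807 for Lamb2. In keratinocyte-like cells they were 8.97 and 0.541 for Lamc1. Of the keratinocyte-like cells, cluster 15 held 217 of 243 at 2 months in version 2 and 2 of 111 at 18 months. The part of this in the ratios was not tested.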

How the results depend on the processing

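The count of genes called older against 2 months depended strongly on the method. DESeq2 called 386 genes in all cells, 142 in fibroblast-like, 47 in papilla-like, 87 in sheath-like, 8 in keratinocyte-like and 121 in macrophage and dendritic-like cells, against 0, 5, 214, 603, 0 and 246 in edgeR. Without a filter on low counts edgeR called 1 in all cells, 323 in fibroblast-like, 30 in keratinocyte-like and 593 in macrophage and dendritic-like cells. Without the chemistry covariate, and likewise with the 12-month library counted as young, 0 were called in fibroblast-like, papilla-like, sheath-like and macrophage and dendritic-like cells, while the second setting called 94 in keratinocyte-like cells. RLE size factors gave 31 and a minimum of 1000 genes 14 in fibroblast-like cells. With doublets kept the counts were 720 in fibroblast-like, 68 in sheath-like and 379 in macrophage and dendritic-like cells. The next 3 alternatives were chosen after seeing the data. Clusters at resolution 1 gave 457 in papilla-like, 188 in sheath-like and 0 in macrophage and dendritic-like cells. Clustering with basement membrane genes gave 380 in papilla-like and 2 in fibroblast-like cells, and leaving out shared barcodes gave 15 in the latter. The cause was not tested for any of these.

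The members' log2 differences changed sign 16 times over these settings, in 11 differences. With the 12-month library counted as young these were Agrn in all cells (0.28) and in sheath-like cells (0.35), Hspg2 in papilla-like cells (-0.22), Nid1 in sheath-like (0.0403) and keratinocyte-like cells (0.28) and Lama2 in keratinocyte-like cells (0.12). With doublets kept they were Lama2 (0.14), Nid1 (0.30) and Nid2 (0.62) in keratinocyte-like cells. At resolution 1 they were Lama4 (-0.13), Nid1 (0.0393) and Nid2 (0.0457) in sheath-like cells, Lamb2 in fibroblast-like cells (-0.0856) and Lamc1 in papilla-like cells (0.0907). With basement membrane genes in the clustering they were Lama4 in sheath-like (-0.0337) and Lamc1 in papilla-like cells (0.0309). Within the cluster best shared by both libraries of a pair, 19 of 100 ratios crossed 1. In 4 of these, all in the version 3 pair, the class ratio's interval had excluded 1, and the ratio went to 1.02 for Hspg2 in sheath-like, 0.884 for Lama2 and 0.856 for Hspg2 in fibroblast-like, and 1.18 for Lama2 in macrophage and dendritic-like cells. No member past the threshold was among these.

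Lamb1 in sheath-like cells lost its call in 7 of 10 alternatives but stayed lower. Its adjusted p was 1.00 in DESeq2 and without the chemistry covariate, 0.835 with 12 months as young, 0.212 with doublets kept, 0.268 at resolution 1, 0.0594 with basement membrane genes and 0.0536 without the filter. It was 0.0351 with RLE factors, 0.0371 with at least 1000 genes and 0.0369 without shared barcodes. Leaving out 1 library leaves a complete pair only on the other chemistry, so the log2 difference of Lamb1 is then that of 1 pair, -0.52 or -0.34, with no test. Another 2 calls appeared, for Agrn in keratinocyte-like cells (log2 4.19, adjusted p = 0.0374) with 12 months as young and for Nid2 in fibroblast-like cells (adjusted p = 0.0452) with doublets kept. In 1 pair alone, 30 of 56 log2 differences had the opposite sign, such as Nid1 (0.07) and Agrn (0.38) in sheath-like cells of version 2. No paired analysis was possible because the groups share fewer than 2 replicate numbers, other than through the chemistry covariate, which already sets each older library beside the 2-month library of its chemistry. Leaving out shared barcodes moved none of 119 ratios past its interval. Of 400 shares of cells with a UMI, 320 moved under another thinning depth or none.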

Other observations

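Receptors of the members were also unevenly spread over the classes. Dag1, the dystroglycan that binds laminin alpha 2, perlecan and agrin, was at 66.7, 71.6, 94.99 and 87.7 CPM in papilla-like cells, at 102, 103, 136 and 126 CPM in sheath-like cells and at 146, 136, 135 and 134 CPM in fibroblast-like cells. Itga6, an integrin alpha chain of laminin receptors, was at 76.6, 82.8 and 76.0 CPM in the keratinocyte-like cells of the 18-month, 2-month version 3 and 12-month libraries, but at 20.9 CPM in those of the 2-month version 2 library. Itgb4, its partner in hemidesmosomes, was at 2.76, 21.4, 27.4 and 29.1 CPM in the same cells. The 2-month version 2 library was thus also the low one for these 2 epithelial receptors, as it was for Agrn and Lamc1.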
